A study of Homo sapiens with 4 samples.

Results

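The genes described here encode potassium channels, voltage-gated calcium and sodium channels and channels of the TRPC, TRPM and TRPV families, pore-forming and accessory subunits included. They were picked out by gene symbol, but this group of genes was chosen with earlier results of these data known. The name pattern matched 156 of the 61806 genes in the count table: 95 potassium, 26 calcium, 14 sodium and 21 TRP channel genes. All 4 RNA-sequencing libraries were made from U118-MG cells, an established line derived from a human glioma and cultured in DMEM and fetal bovine serum, and all carry the genotype label WT. The NC group (2 libraries) had been infected with a lentiviral negative control vector and the SPNS2 group (2 libraries) with the same pCDH-CMV-MCS-EF1-puro vector carrying SPNS2, which encodes an exporter of sphingosine 1-phosphate, a signalling lipid. Whether the cells of a group were a pool or a clone is not given in the sources used here. Separate cultures are not named for the 2 libraries of a group, so the p-values measure only the spread between these libraries, which may be technical.

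Potassium channels carry potassium out of the cell and hold the membrane potential negative, which in glial cells is set largely by inward rectifier and two-pore-domain channels. Voltage-gated sodium and calcium channels open on depolarisation and are best known from neurons and muscle, where accessory subunits set how much channel reaches the surface and how fast it gates. TRP channels are cation channels opened by temperature, lipids, stretch or ligands. Glioma cells are known for calcium-activated potassium currents through the KCNMA1 and KCNN4 channels, which have been tied to volume change and movement.

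The comparison asks which channel transcripts differ between SPNS2 and NC cells. Each library held between 31353373 and 34125159 counted reads, and 23501 to 25096 genes had at least 1 count. SPNS2 itself (chromosome 17, 4498838 to 4539035 on hg38) had 42 and 47 counts under NC and 7381 and 8224 counts under SPNS2 (log2 fold change 7.48, SE 0.086, adjusted p = 0.00028 by edgeR), and its counts do not separate vector-borne from endogenous transcripts. Of 11 astroglial and glioma markers, VIM (4037 to 6820 CPM, the scaled read count relative to library size) and CD44 (335 to 420.1 CPM) were abundant, whereas S100B had no counts, GFAP had 8 counts at most in a library, and AQP4, SOX2 and OLIG2 had 4 at most. VIM rose 1.49-fold (adjusted p = 0.021) and NES fell 1.78-fold (adjusted p = 0.024). The glutamate transporter gene SLC1A3 rose 18.5-fold, from 1.12 and 0.92 CPM to 20.2 and 17.8 CPM (adjusted p = 0.0016). SLC1A2, on the same list, had 26 and 27 counts in NC and 16 and 6 in SPNS2 and was not called (adjusted p = 0.25). CD44 was not called either (adjusted p = 0.12), and ALDH1L1 had 6 counts at most in a library. The neuronal genes RBFOX3 and STMN2 and the muscle genes MYOD1, MYOG and TNNT2 had no counts. The muscle gene DES, not tested, had 5 and 10 counts in NC and 70 and 4 in SPNS2. The neuronal gene DCX, also not tested, had 2 and 10 counts in NC and none in SPNS2. The 7 neuronal markers summed to 95.0 to 139.8 CPM in NC and 154 to 165 CPM in SPNS2. Most of each sum was TUBB3, with means of 93.8 CPM in NC and 146.4 CPM in SPNS2. TUBB3 was not called (adjusted p = 0.16), so the sum does not show a rise of the neuronal markers as a set. Among the others, SNAP25 was higher and SYT1 and GAP43 were lower. The part of the neuronal markers in the channel results was not tested. In bulk RNA of a culture, fewer cells expressing a gene and less RNA per cell cannot be told apart.

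Of the 156 channel genes, 47 had no counts in any library, 50 had between 1 and 34 counts over the 4 libraries (median 7) and were too low to test, and 59 were tested. Genes without counts included most KCNA genes (KCNA1, KCNA2, KCNA4, KCNA5 and KCNA6), KCNB2, KCNC2, KCND3, KCNG2, KCNG4, KCNS1, KCNS2, KCNH2, KCNH6, KCNH7, KCNIP1, KCNIP3 and KCNT1. The inward rectifiers KCNJ1, KCNJ10, KCNJ11, KCNJ16 and KCNJ18 and the two-pore-domain genes KCNK1, KCNK5, KCNK7, KCNK12, KCNK16, KCNK17 and KCNK18 were also without counts, and KCNJ10 is the classical inward rectifier of astrocytes. Also without counts were CACNA1B, CACNA2D4, CACNG1, CACNG3, CACNG4, CACNG5, CACNG6, CACNG7, SCN10A, SCN2B, TRPC2, TRPC5, TRPC7, TRPM5, TRPV5 and TRPV6. At this depth, a sum of up to 3 counts over a group cannot be told from no transcript.

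**Figure D1:**
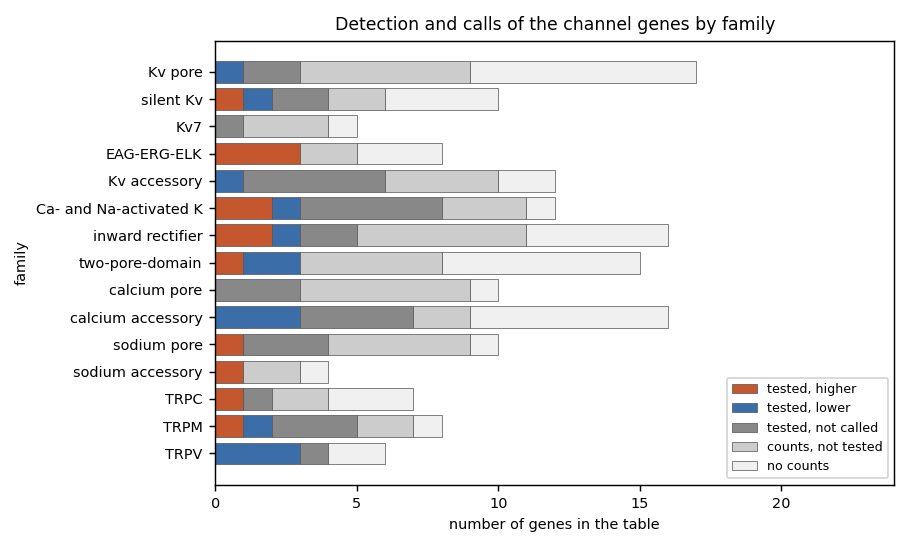
Number of channel genes in each family (horizontal axis) by outcome: tested and called higher, tested and called lower, tested and not called, with counts but not tested, and without counts. The 17 pore genes of KCNA, KCNB, KCNC and KCND hold 8 genes without counts and 3 tested genes. All 3 tested EAG-ERG-ELK genes were higher, and 2 of these passed the low-count filter through SPNS2 only. Of 4 tested TRPV genes 3 were lower, and 1 of these passed the filter through NC only.

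Among the 59 tested channel genes, 13 rose and 14 fell in the SPNS2 cells (edgeR quasi-likelihood test, adjusted p under 0.05), and 32 were not called. That is 45.8% called, against 23.4% of all 17853 genes tested, where 12.1% were higher and 11.3% lower. Because the group was chosen with earlier results known, the larger share is a description only. Among the called channel genes, 11 higher and 12 lower ones had a fitted change of 2-fold or more. Uncalled genes with fitted changes that large are not in this count, and the share over all genes tested was not counted. The median log2 fold change of the tested channel genes was 0.05, beside -0.0085 for all genes tested. A total of 13 tested channel genes reached the low-count filter in 1 group only, 7 through SPNS2 and 6 through NC, and 7 of these were called. Of the other 46, 20 were called, 9 higher and 11 lower. Among potassium channel genes 9 of 33 tested rose and 7 fell, among calcium channel genes none of 10 rose and 3 fell, among sodium channel genes 2 of 5 rose and none fell, and among TRP channel genes 2 of 11 rose and 4 fell. Pore-forming genes accounted for 22 of the 27 calls (12 higher, 10 lower, of 42 tested), and accessory genes for 5 (1 higher, 4 lower, of 17 tested).

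The number of calls depended on the number of libraries. Higher and lower calls were 8 and 9 without NC replicate 1, 8 and 6 without NC replicate 2, 9 and 8 without SPNS2 replicate 1, and 7 and 9 without SPNS2 replicate 2. With the replicate number as a block they were 8 and 11. Over all 17853 genes tested, calls fell from 4171 to 1976 under the block, and they also fell with each library left out. The loss of calls was thus not particular to the channel genes. Among the 12 genes called under each of the 15 alternatives run were KCNJ2, KCNK2, KCNN2, KCNS3 and SCN8A (higher) and KCNK6, KCNK15, KCNMA1, CACNA2D3, TRPM8 and TRPV3 (lower).

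**Figure D2:**
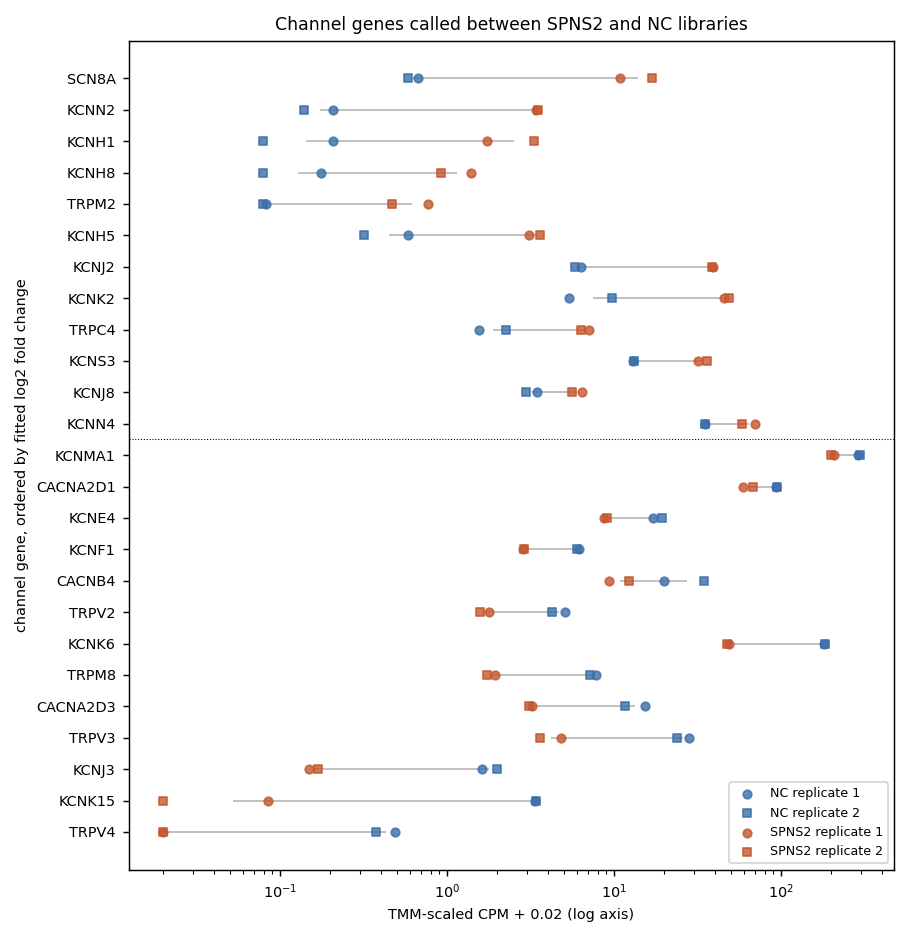
TMM-scaled CPM plus 0.02 (log axis) of 25 of the 27 called channel genes in each library, NC in blue and SPNS2 in orange, with circles for replicate 1, squares for replicate 2 and a line between the group means. Genes above the dotted line were higher in SPNS2 and genes below it lower, and SCN8A at the top lay at 0.654 and 0.564 CPM in NC against 10.8 and 16.8 CPM in SPNS2.

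Two-pore-domain potassium channels carry the background leak current. Of 15 genes in the table, 7 had no counts and 3 were tested, and each of the 3 was called. KCNK6 (TWIK2; chromosome 19, 38319844 to 38332076) had 180 and 184 CPM in NC and 48.6 and 47.5 CPM in SPNS2, so both SPNS2 libraries were far below both NC libraries. It fell 3.79-fold, with a log2 fold change of -1.92 (SE 0.060, adjusted p = 0.00093). KCNK2 (TREK-1, a channel opened by stretch and lipids; chromosome 1, 215005775 to 215237093) went the other way, from 5.36 and 9.65 CPM to 45.7 and 48.5 CPM. The NC libraries of KCNK2 differed from each other, yet both lay well below the SPNS2 libraries (log2 fold change 2.65, SE 0.31, adjusted p = 0.0094), and values ran from 2.29 without NC replicate 1 to 3.13 without NC replicate 2.

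KCNK15, a subunit of the acid-sensitive TASK group, was read 107 and 114 times in NC and 2 times and not at all in SPNS2, a ratio of NC to SPNS2 of 108 (95% exact counting interval 29.5 to 896, adjusted p = 0.0098). It reached the low-count filter through the NC libraries only, which favours a lower value in SPNS2. RIMS4, which overlaps its exons on the other strand, had no counts. KCNK3, an acid-sensitive leak channel, was not tested, with 20 and 10 counts in NC and none in SPNS2. That is 9.76-fold lower with 3 counts over the SPNS2 group as the floor, a value that leaves out the counting error of NC.

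Inward rectifiers pass potassium most easily near and below the resting potential. Of 5 tested KCNJ genes 2 rose, 1 fell and 2 were not called. KCNJ2 (Kir2.1, the classical strong inward rectifier; chromosome 17, 70168673 to 70180048) had 6.36 and 5.82 CPM in NC and 39.0 and 38.5 CPM in SPNS2. The libraries of each group nearly coincided, and the rise was 6.37-fold (log2 fold change 2.67, SE 0.12, adjusted p = 0.0013). The antisense gene KCNJ2-AS1 shares 185 exon bases with it and also rose, from 8 and 16 counts to 70 and 53 counts (adjusted p = 0.033). The strand setting of the counting is not given in the sources used here, so reads of that stretch cannot be assigned with certainty.

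KCNJ8, the pore of ATP-sensitive Kir6.1 channels, rose from 3.46 and 2.97 CPM to 6.39 and 5.57 CPM (adjusted p = 0.044). Its call was lost with any 1 library left out (adjusted p from 0.0939 without SPNS2 replicate 2 to 0.157 without NC replicate 2), with the replicate block (0.0871), without the low-count filter (0.0731), with library totals (0.051) and with glmTreat (0.0755). An antisense gene shares 268 of its exon bases and had 0 and 2 counts in NC and 21 and 41 in SPNS2. ABCC9, the sulfonylurea receptor that partners Kir6.1 in smooth muscle, is not matched by the name pattern and rose as well (adjusted p = 0.038). KCNJ3 (GIRK1, a channel opened by G protein beta-gamma subunits) fell from 1.59 and 1.96 CPM to 0.13 and 0.15 CPM, a 12.4-fold change (adjusted p = 0.0099, and 0.0635 without NC replicate 2), and it too reached the filter through NC only. KCNJ14 and KCNJ15 were not called, with log2 fold changes of 0.50 (SE 0.22) and 0.002 (SE 0.36).

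Calcium-activated potassium channels link cytosolic calcium to membrane potential. KCNMA1, the large-conductance BK pore, had the highest CPM of all channel genes, at 291 and 296 CPM in NC and 207 and 199 CPM in SPNS2. It fell 1.44-fold (log2 fold change -0.53, SE 0.054, adjusted p = 0.0069), with no overlap between the groups. KCNMA1 lies on 10q, where the median log2 fold change of all tested genes was -0.24, and its change was -0.29 (adjusted p = 0.031) with the arm medians removed. Its accessory beta subunits were rare: KCNMB2, KCNMB3 and KCNMB4 were tested and not called, and KCNMB1 had 8 counts in all. KCNMB3 shares 3403 exon bases with PIK3CA on the other strand, which makes its counts uncertain.

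KCNN4 (KCa3.1, the intermediate-conductance channel) rose from 35.1 and 35.0 CPM to 69.6 and 58.5 CPM, a 1.83-fold change (log2 fold change 0.87, SE 0.11, adjusted p = 0.012). The call was lost without NC replicate 1 and without NC replicate 2 (adjusted p = 0.0561 and 0.0557), while the fold change stayed at 0.87 in both. KCNN2 (SK2, a small-conductance channel; chromosome 5, 114055545 to 114496500) rose from 6 and 4 counts to 104 and 116 counts, a 21.9-fold change (adjusted p = 0.0044). KCNN2 reached the low-count filter through the SPNS2 libraries only, which favours a higher value there, and its log2 fold change ranged from 4.16 without NC replicate 2 to 4.80 without NC replicate 1. It lies on 5q, where all tested genes had a median log2 fold change of 0.43, against 4.46 (SE 0.37) for KCNN2. KCNN1 had 14 and 3 counts in NC and none in SPNS2 and was not tested, KCNN3 stayed uncalled (adjusted p = 0.60), and the sodium-activated KCNT2 had 72 and 61 counts in NC and 47 and 113 in SPNS2.

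The EAG, ERG and ELK family (KCNH) holds voltage-gated potassium channels with a cyclic-nucleotide-binding-like domain. EAG channels are normally found in brain and appear in many tumour lines. All 3 tested members rose from near the detection limit, and a further 5 were without counts or too low to test. KCNH1 (EAG1) had 6 and 2 counts in NC and 53 and 110 counts in SPNS2, a log2 fold change of 4.32 (SE 0.69, adjusted p = 0.019). KCNH5 (EAG2) had 18 and 10 counts in NC and 95 and 120 counts in SPNS2 (log2 fold change 2.95, SE 0.41, adjusted p = 0.014). KCNH8 (ELK3) had 5 and 2 counts in NC and 42 and 30 counts in SPNS2 (log2 fold change 3.36, SE 0.66, adjusted p = 0.031). No NC library of these genes reached the lower SPNS2 library. Because KCNH1 and KCNH8 passed the low-count filter through the SPNS2 libraries only, the filter favoured a higher value in SPNS2 for them.

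The calls of the KCNH genes rested on few reads. The log2 fold change ranged from 3.72 without NC replicate 2 to 5.31 without NC replicate 1 in KCNH1, from 2.56 to 3.47 in KCNH5 and from 2.82 to 4.16 in KCNH8, with the same libraries left out. KCNH1 lost its call without NC replicate 2 and without SPNS2 replicate 2 (adjusted p = 0.0676 and 0.0767) and with the replicate block (0.0642), KCNH5 without SPNS2 replicate 2 (0.0598), and KCNH8 with any 1 library left out (0.0754 without NC replicate 1 to 0.151 without SPNS2 replicate 1) and with the block (0.0634). In KCNH1, 36.9% of the exon bases are shared with a gene on the other strand that had 2 to 12 counts in each library. KCNH4, not tested, had no counts in NC and 12 and 4 in SPNS2, 5.46-fold higher against the floor of 3 counts. KCNH3, also not tested, went the other way, with 4 and 2 counts in NC and none in SPNS2, 1.95-fold lower against that floor.

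The promoters of the 3 KCNH genes are shown because all 3 tested genes of this family were called higher, 2 of them tested through the SPNS2 libraries only. Those of KCNK6 and TRPV3 are shown as examples of genes that fell under each alternative, and other such genes are not shown. Each sequence is the 250 bases before the RefSeq start site on GRCh38.p14, on the strand of the gene, with GC boxes (GGGCGG on either strand) in capitals. The windows are chr1:211134149-211134398 (minus strand) for KCNH1, chr14:63045459-63045708 (minus) for KCNH5, chr3:19148260-19148509 (plus) for KCNH8, chr19:38319595-38319844 (plus) for KCNK6 and chr17:3557813-3558062 (minus) for TRPV3. The KCNH5 window lies inside the gene as annotated in GENCODE (62699454 to 63102037, minus strand). Whether the counted KCNH5 transcripts start at this RefSeq site was not tested.
KCNH1: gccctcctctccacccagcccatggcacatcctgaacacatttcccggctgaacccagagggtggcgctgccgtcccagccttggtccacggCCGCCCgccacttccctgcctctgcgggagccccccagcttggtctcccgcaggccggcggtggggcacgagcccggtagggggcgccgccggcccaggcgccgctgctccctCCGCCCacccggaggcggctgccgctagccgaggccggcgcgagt
KCNH5: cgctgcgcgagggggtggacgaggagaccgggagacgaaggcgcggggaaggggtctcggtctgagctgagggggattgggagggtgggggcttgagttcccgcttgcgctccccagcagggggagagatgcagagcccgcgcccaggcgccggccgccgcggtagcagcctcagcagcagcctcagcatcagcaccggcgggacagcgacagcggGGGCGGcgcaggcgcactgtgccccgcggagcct
KCNH8: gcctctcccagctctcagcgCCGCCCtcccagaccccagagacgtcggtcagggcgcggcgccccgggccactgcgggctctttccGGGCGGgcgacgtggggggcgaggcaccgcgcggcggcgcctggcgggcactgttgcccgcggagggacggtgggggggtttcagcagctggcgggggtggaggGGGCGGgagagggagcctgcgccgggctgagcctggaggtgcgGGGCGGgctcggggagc
KCNK6: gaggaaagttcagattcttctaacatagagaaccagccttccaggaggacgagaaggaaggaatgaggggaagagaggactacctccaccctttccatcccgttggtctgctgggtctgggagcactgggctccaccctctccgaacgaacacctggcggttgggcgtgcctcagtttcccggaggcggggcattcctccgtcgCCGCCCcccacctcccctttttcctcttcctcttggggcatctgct
TRPV3: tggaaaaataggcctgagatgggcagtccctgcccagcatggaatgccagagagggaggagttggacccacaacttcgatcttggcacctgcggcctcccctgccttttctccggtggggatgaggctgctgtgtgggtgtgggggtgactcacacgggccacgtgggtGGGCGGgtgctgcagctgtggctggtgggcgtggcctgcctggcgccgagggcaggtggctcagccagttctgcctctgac

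The 3 KCNH windows were rich in G and C, at 75.6%, 74.0% and 79.2%, and held 25, 27 and 30 CpG dinucleotides with 2, 1 and 4 GC boxes. Observed CpG counts were 0.72, 0.82 and 0.80 of those expected from base composition, and the values for KCNK6 and TRPV3 were 0.50 and 0.35. The medians of the whole sets had the other order, at 0.65 over the 12 windows of genes that rose and 0.76 over the 9 of genes that fell. The median over all RefSeq windows was 0.56. A ratio above 0.6 was found in 8 of the 12 and 5 of the 9 windows, and in 47.4% of all RefSeq windows. RefSeq windows were matched by symbol for 111 of the 156 channel genes. For 78 of these 111, the bases after the start site lay in a transcript on the same strand. The set values use all 111 windows, so some may not be the start used in these cells. A GC box stood in 75.0% of 12 genes that rose, 66.7% of 9 that fell, 61.5% of 26 tested but not called, 52.9% of 34 with counts but not tested and 43.3% of 30 without counts, and in 42.3% of 27305 RefSeq windows of the same length. The AP-1 letters TGANTCA were found in none of the 12 higher genes and in 2 of 9 lower genes (TRPV3 among them), against 6.6% of all windows. The TEAD letters GGAATG were found in 1 of 12 higher and 3 of 9 lower genes (KCNK6 and TRPV3 among them), against 11.9% of all windows. Both strands were searched, and these are descriptions of letters in 1 window per gene.

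Voltage-gated potassium channels of the KCNA to KCND families repolarise excitable cells, and here only 3 of 17 were tested. Among these, KCNC4 and KCND2 were not called (adjusted p = 0.11 and 0.66).

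Silent Kv subunits do not form channels on their own and modify other Kv pores by joining them. They moved in different directions: KCNS3 rose from 13 and 13.1 CPM to 31.7 and 35.8 CPM (log2 fold change 1.37, SE 0.12, adjusted p = 0.0047), while KCNF1 fell from 6.17 and 5.97 CPM to 2.82 and 2.87 CPM (log2 fold change -1.09, SE 0.18, adjusted p = 0.022). The groups did not overlap in either gene. KCNF1 lost its call with any 1 library left out (adjusted p from 0.073 without SPNS2 replicate 2 to 0.09 without NC replicate 1) and with the replicate block (0.0674). KCNV1 had 3 counts and none in NC and 38 and 14 in SPNS2, a ratio of 17.8 (95% exact counting interval 5.75 to 88.9) that did not pass the test (adjusted p = 0.086), and KCNG1 was not called either (adjusted p = 0.15).

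KCNQ5, a pore of the M-type current and the single Kv7 gene tested, had 36.2 and 40.9 CPM in NC and 27.4 and 32.1 CPM in SPNS2 (log2 fold change -0.37, SE 0.13, adjusted p = 0.11). Among the accessory subunits of Kv channels, KCNE4, which inhibits several Kv channels, fell from 17.1 and 19.4 CPM to 8.63 and 9.01 CPM (log2 fold change -1.05, SE 0.14, adjusted p = 0.012). The call of KCNE4 was lost without NC replicate 2 (adjusted p = 0.0628), without SPNS2 replicate 1 (0.0547) and without SPNS2 replicate 2 (0.0534). The other 5 tested accessory genes (KCNAB1, KCNAB2, KCNAB3, KCNE5 and KCNIP2) were not called, with log2 fold changes from -2.34 (SE 0.88, KCNAB1) to 0.73 (SE 0.43, KCNE5).

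**Figure D3:**
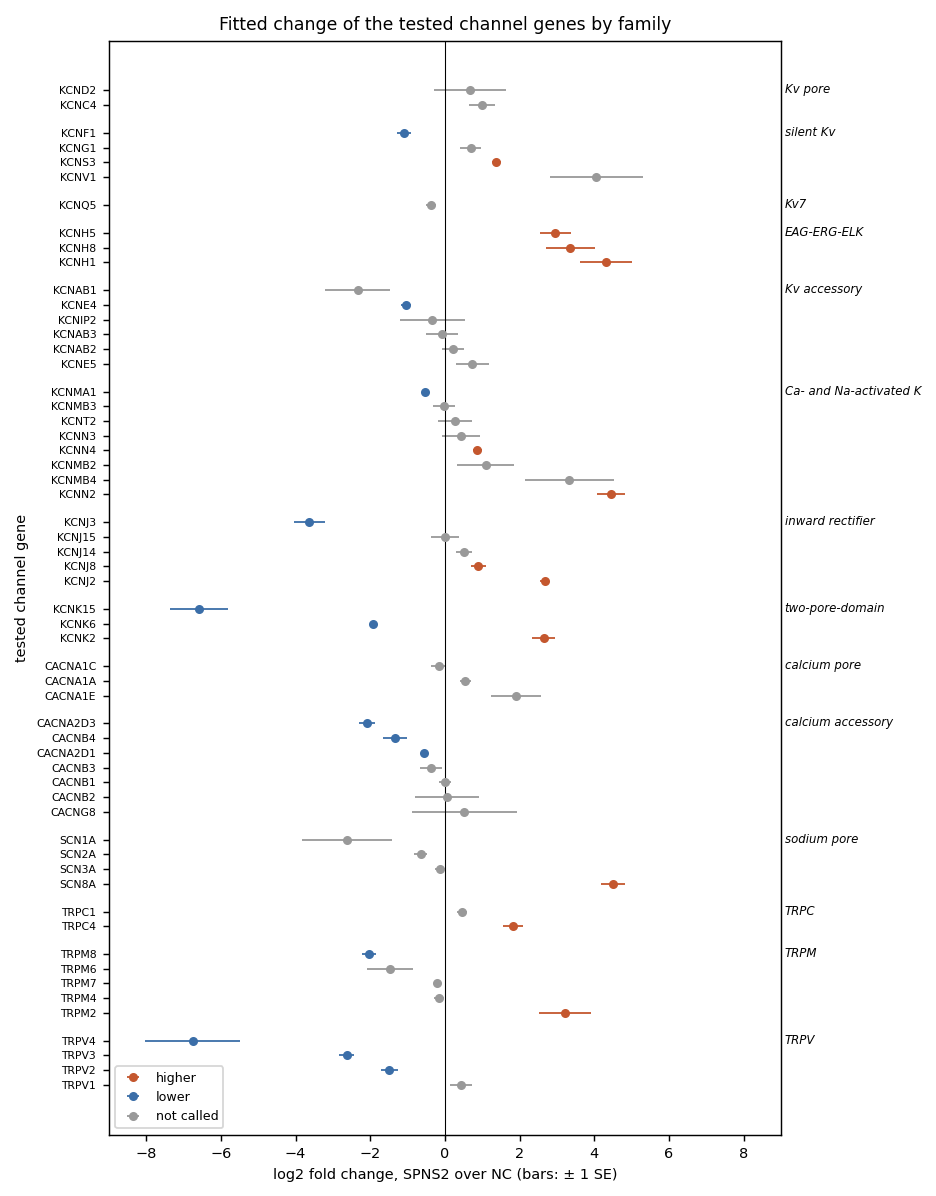
Fitted log2 fold change of SPNS2 over NC (horizontal axis, bars of 1 SE) for 57 of the 59 tested channel genes, grouped by family, with called genes in orange (higher) or blue (lower) and the others in grey. The 3 KCNH genes sit between 2.95 and 4.32, whereas the two-pore-domain genes spread from -6.58 to 2.65. The value of TRPV4, at -6.75, comes from a group without counts and depends on the prior count of the fit.

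Voltage-gated calcium channels pair an alpha-1 pore with an alpha-2-delta and a beta subunit, which bring the pore to the membrane. None of the 3 tested pore genes was called, whereas 3 of 7 tested accessory genes fell. CACNA1C (Cav1.2, the L-type pore) had 53.5 and 37.2 CPM in NC and 38.4 and 42.2 CPM in SPNS2, so the groups overlapped (log2 fold change -0.17, SE 0.20, adjusted p = 0.59), and the sign turned with arm medians removed and without NC replicate 1. CACNA1A (Cav2.1, the P/Q-type pore) had 31.6 and 35.7 CPM in NC and 55.1 and 43.1 CPM in SPNS2 (log2 fold change 0.55, SE 0.15, adjusted p = 0.071) and passed the test of DESeq2 (adjusted p = 0.02). CACNA1E had 5 and 4 counts in NC and 21 and 12 in SPNS2 (adjusted p = 0.12).

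The alpha-2-delta genes CACNA2D1 and CACNA2D3 both fell. CACNA2D1, the binding site of gabapentin, had 92.9 and 94.7 CPM in NC and 59.0 and 68.3 CPM in SPNS2 (log2 fold change -0.56, SE 0.094, adjusted p = 0.022). Its call was lost without NC replicate 1, NC replicate 2 or SPNS2 replicate 1 (adjusted p = 0.0813, 0.087 and 0.0623) and with glmTreat (0.0564). CACNA2D3 (chromosome 3, 54122547 to 55074557) fell 4.26-fold, from 15.2 and 11.6 CPM to 3.21 and 3.08 CPM (log2 fold change -2.09, SE 0.20, adjusted p = 0.0063).

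Of the beta subunits, CACNB4 fell from 643 and 1172 counts to 285 and 411 counts (log2 fold change -1.35, SE 0.32, adjusted p = 0.049). The NC libraries of CACNB4 differed, and the call was lost without NC replicate 2 (log2 fold change -0.90, adjusted p = 0.12), without SPNS2 replicate 1 (0.16), without SPNS2 replicate 2 (0.11), with limma-voom (0.0652), with a robust edgeR fit (0.0542), without the low-count filter (0.0553), with arm medians removed (0.0709) and with glmTreat (0.0742). CACNB1 was at 12 and 10.3 CPM in NC and 11.7 and 10.5 CPM in SPNS2, with a log2 fold change of -0.0049 (SE 0.16). CACNB3 had 15 and 15.9 CPM in NC and 15.2 and 8.59 CPM in SPNS2 (adjusted p = 0.42). The CACNG genes, most of them known as partners of AMPA receptors, were nearly absent, with 6 of the 8 without counts and CACNG8 at 14 counts at most.

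Voltage-gated sodium channels carry the upstroke of the action potential, and 4 of 10 pore genes were tested. SCN8A (Nav1.6, the pore of nodes of Ranvier and axon initial segments; chromosome 12, 51590266 to 51812864) rose 22.6-fold, from 21 and 19 counts to 334 and 561 counts, or from 0.65 and 0.56 CPM to 10.8 and 16.8 CPM. Its log2 fold change of 4.50 (SE 0.32, adjusted p = 0.0034) lay between 4.15 without SPNS2 replicate 2 and 4.80 without SPNS2 replicate 1, and was not separable from those of KCNN2 and KCNH1 given their SEs. The groups were well apart. SCN4B, not tested, had no counts in NC and 15 and 8 in SPNS2, at least 7.85-fold higher.

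SCN3A, SCN2A, SCN1A, SCN9A and SCN7A lie on chromosome 2 between 165087522 and 166494326. None of the 5 was called, and those with most reads had lower means in SPNS2: SCN2A, the Nav1.2 pore, had 17.9 and 14 CPM in NC and 9.87 and 10.5 CPM in SPNS2 (log2 fold change -0.65, SE 0.17, adjusted p = 0.063). SCN3A, the Nav1.3 pore of developing brain, had 17.2 and 15.7 CPM in NC and 14.1 and 16 CPM in SPNS2, with overlapping groups (adjusted p = 0.55). SCN1A had 19 and 21 counts in NC and 6 and 0 in SPNS2 (adjusted p = 0.19), and SCN9A and SCN7A were not tested, with 22 and 8 counts in all.

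TRPV channels are opened by heat, ligands and lipids. Of 4 tested TRPV genes 3 fell and TRPV1 was not called. TRPV3, a warmth-sensitive channel of skin (chromosome 17, 3510502 to 3557995), fell 6.20-fold, from 28.2 and 23.8 CPM to 4.80 and 3.59 CPM (log2 fold change -2.63, SE 0.21, adjusted p = 0.0041). Its neighbour TRPV1, the capsaicin receptor (3565444 to 3609411), had 6.33 and 3.80 CPM in NC and 6.75 and 6.80 CPM in SPNS2 (adjusted p = 0.36). TRPV2 fell from 5.08 and 4.22 CPM to 1.75 and 1.56 CPM (log2 fold change -1.49, SE 0.24, adjusted p = 0.019). It lost its call with any 1 library left out (adjusted p from 0.0575 without NC replicate 2 to 0.0848 without NC replicate 1) and with the replicate block (0.0533). TRPV4, an osmosensitive channel, had 15 and 12 counts in NC and none in SPNS2, 8.79-fold lower against the floor of 3 counts (adjusted p = 0.043). It reached the low-count filter through NC only. That call was lost without the filter (adjusted p = 0.0739), with glmTreat against a fold of 1.2 (0.0604), without NC replicate 2 (0.19), without SPNS2 replicate 1 (0.128), without SPNS2 replicate 2 (0.128), with the replicate block (0.14) and with arm medians removed (0.0519), and TRPV4 was not tested without NC replicate 1.

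TRPM channels differ widely in what opens them. TRPM7, a channel fused to a kinase that carries magnesium, was the most abundant TRP gene, with 117 and 125 CPM in NC and 102 and 106 CPM in SPNS2 (log2 fold change -0.22, SE 0.067, adjusted p = 0.083), and a log2 fold change of -0.0078 with arm medians removed. TRPM8, the menthol and cold receptor (chromosome 2, 233917398 to 234019522), fell 4.10-fold, from 7.73 and 7.13 CPM to 1.91 and 1.71 CPM (log2 fold change -2.03, SE 0.20, adjusted p = 0.0062). The calcium-activated TRPM4 did not pass the test (adjusted p = 0.44), and its groups overlapped. TRPM2, a channel opened by ADP-ribose, had 2 counts in each NC library and 23 and 15 in SPNS2 (log2 fold change 3.21, SE 0.69, adjusted p = 0.039). It reached the filter through SPNS2 only, and its call was lost with any 1 library left out (adjusted p between 0.12, lacking SPNS2 replicate 2, and 0.23, lacking SPNS2 replicate 1), with DESeq2 (0.0549), with limma-voom (0.0623), without the filter (0.0655), with the replicate block (0.1), with arm medians removed (0.0503) and with glmTreat (0.0548).

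TRPC channels open downstream of phospholipase C. TRPC4 rose from 1.53 and 2.23 CPM to 7.11 and 6.29 CPM (log2 fold change 1.83, SE 0.27, adjusted p = 0.016). The call was lost without NC replicate 1 (adjusted p = 0.0529), without SPNS2 replicate 1 (0.0598), without SPNS2 replicate 2 (0.0511) and with the replicate block (0.0507). TRPC1 had 20.1 and 22.2 CPM in NC and 26.3 and 31.5 CPM in SPNS2 (log2 fold change 0.45, SE 0.14, adjusted p = 0.088).

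Levels of different genes were compared as TMM-scaled CPM per kilobase of exon, with the union of all annotated exons of a gene as its length. By this measure KCNK6 had the highest channel level in NC, at 29.5 ± 0.43 per kilobase (SD, n = 2). CACNA2D1 (10.4 ± 0.14), KCNN4 (10.3 ± 0.024) and TRPM7 (9.76 ± 0.44) came next, well below it and within 1 unit of each other. In SPNS2 the order was KCNN4 (18.8 ± 2.30), KCNK2 (12 ± 0.50), KCNS3 (10.8 ± 0.94), TRPM7 (8.37 ± 0.20), KCNK6 (7.79 ± 0.13), CACNA2D1 (7.06 ± 0.73) and KCNJ2 (6.95 ± 0.060). The ranges of mean ± SD of KCNK2 and KCNS3 overlapped there, although KCNK2 was higher in each library (11.7 and 12.4 against 10.1 and 11.4). Those of CACNA2D1 and KCNJ2 overlapped too. KCNK2 ranked 16 in NC and 2 in SPNS2, KCNJ2 ranked 22 and 7, and TRPV3 12 and 31. KCNMA1, first by CPM, ranked 5 and 9 per kilobase because its annotated exons span 35644 bases, more than a single transcript would hold. A shorter length would raise its level per kilobase, so the order of the genes depends on this choice of length.

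Summed over all potassium channel genes, the level per kilobase was 74.5 and 77.1 under NC and 79.4 and 77.9 under SPNS2, a much smaller difference than that of its main genes. KCNK6 made up 38.9% of that sum in NC and KCNN4 13.6%, whereas in SPNS2 KCNN4 made up 23.9% and KCNK2 15.3%. The calcium channel sum was 21.6 and 20.5 in NC and 14.7 and 14.6 in SPNS2, with CACNA2D1 at 49.4% and 48.2% of it. The sodium channel sum was 3.29 and 3.12 in NC and 4.53 and 5.25 in SPNS2, and the TRP sum 23.9 and 24.1 in NC and 21.3 and 21.6 in SPNS2. These sums and shares depend on the same choice of length and were not tested.

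**Figure D4:**
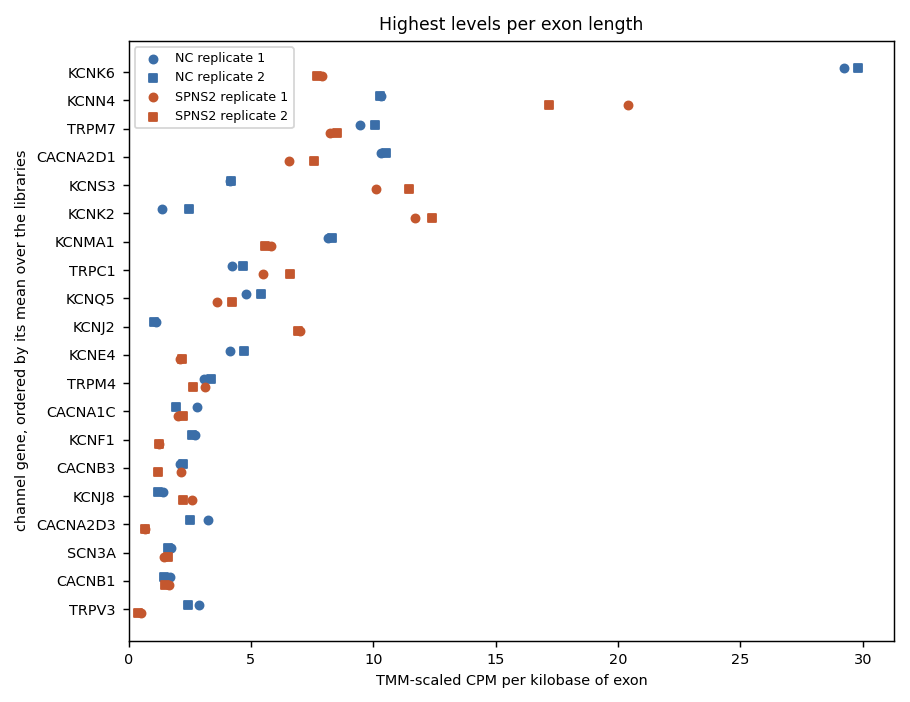
TMM-scaled CPM per kilobase of exon (horizontal axis, from 0) of the 20 tested channel genes with the highest mean over the 4 libraries, NC in blue and SPNS2 in orange, 1 point per library. KCNK6 lies at 29.2 and 29.8 in NC and below 8 in SPNS2, while KCNN4, KCNK2, KCNS3 and KCNJ2 lie higher in SPNS2.

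A list of 64 other genes of cation transport and calcium handling, outside the name pattern, was described in the same way. It too was chosen with earlier results of these data known. Of 45 tested, 7 rose, 8 fell and 30 were not called, which is 33.3% called against 23.4% of all genes tested, with a median log2 fold change of 0.07. Among the 6 with the smallest p were ITPR1, ANK3, ATP1B1, ATP2B4 and TPCN1. ITPR1, the calcium release channel of the endoplasmic reticulum that answers to inositol trisphosphate, fell 7.22-fold, from 250 and 245 CPM to 32.4 and 36 CPM (adjusted p = 0.00087). ANK3, ankyrin G, which anchors sodium channels at the axon initial segment, rose 7.19-fold, from 4.36 and 4.22 CPM to 34.8 and 26.9 CPM (adjusted p = 0.0027). ATP1B1, a beta subunit of the sodium pump, rose 3.54-fold (adjusted p = 0.003). The plasma membrane calcium pump ATP2B4 fell 1.60-fold and the lysosomal channel TPCN1 fell 1.64-fold (adjusted p = 0.0056 and 0.0077). The store-operated entry genes STIM1, STIM2, ORAI1, ORAI2 and ORAI3 were not called.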

How the data were processed

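What the authors deposited is a table of unnormalized whole-number counts for each gene in 4 libraries. The submitters' processing notes list HISAT2 2.2.1, Trim Galore 0.6.9, hg38 and featureCounts 0.3, with no order or settings. Annotation release and strand setting are not given in the sources used. The table has 61806 genes and 1 row of annotation text, left out. Genes passing filterByExpr (minimum count 10, minimum total 15) were TMM-scaled and compared in edgeR 4.0.16 (R 4.3.3) by the quasi-likelihood test, two-sided, with the groups and no covariate. Benjamini-Hochberg adjustment covered all 17853 tested genes, calls were made under 0.05, and adjusted p-values printed without a tool are from edgeR. The SE is the fold change divided by the square root of F. CPM are TMM-scaled. A fold against a group without counts uses a floor of 3 counts over the group. Intervals cover counting error only. Folds against the floor take the counts of the other group as read and are not confidence limits. Positions, exon lengths and overlaps came from GENCODE 29 (GRCh38), matched by Ensembl identifier for all 156 channel genes; promoters came from RefSeq (GRCh38.p14). The script was tested on simulated data. Alternatives were DESeq2 1.42.0, limma-voom (limma 3.58.1), a robust fit, RLE or upper-quartile factors, library totals, other filters, a replicate block, each library left out, chromosome arm medians removed and glmTreat against 1.2-fold.

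The members and lists were chosen with earlier results of these data known. Named genes were all called channel genes, the 12 with the highest CPM, and the highest tested gene of each family. KCNK3, KCNN1, KCNH3, KCNH4, SCN4B, KCNV1, ABCC9, neighbours and other uncalled genes were named after their values were seen. Some genes that this rule or the lists would name are not reported here. Of the marker lists, 2 of 5 tested astroglial genes rose and 1 fell, 1 of 4 neuronal genes rose and 2 fell, no muscle gene was tested and 2 of 3 mesenchymal genes rose, beside 12.1% higher and 11.3% lower of all genes tested.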

Additional observations from a re-analysis of the deposited data

How the results depend on the processing

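No called channel gene changed direction under those of the 15 alternatives that tested it, and 12 of the 27 kept their call in each. The counts of higher and lower calls were 13 and 14; they ranged from 7 to 9 and from 6 to 9 with a library left out, and were 8 and 11 with the replicate block. With 1 library left in a group, it was assumed to vary like the other group. Calls over all genes tested fell in these fits too. Every channel gene called with a library left out or under the block was also called with all 4 libraries in the main fit. Under the other alternatives the counts stayed within 1.5 times. Of the uncalled genes, CACNA1C turned to 0.0034 with arm medians removed and to 0.12 without NC replicate 1 (from -0.41 to 0.12 over the libraries left out), and SCN3A to 0.019 with arm medians removed. TRPM7 was called with library totals only (adjusted p = 0.049), and KCNJ8 was not (0.051). The SPNS2 transcript was called under each alternative. The labels do not state that replicate numbers pair the libraries. Deviations of same-numbered libraries had a correlation of -0.078 across genes. With a single difference per group, that value does not settle whether same-numbered libraries belong together. Whether a call lost under the block is a weaker effect was not tested. Depth limits the genes with few reads: 50 channel genes with counts could not be tested, and folds of genes near 0 counts rest on a floor or have wide intervals. Arms were divided at approximate centromere positions.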
